A study of Mus musculus with 6 samples.

Results

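The genes described here are 4 smooth muscle isoforms and their 6 closest nonmuscle relatives. The smooth muscle isoforms are the myosin heavy chain gene Myh11, the calponin gene Cnn1, the transgelin gene Tagln and the desmin gene Des. Their relatives are Myh9 and Myh10, Cnn2 and Cnn3, Tagln2, and the vimentin gene Vim. They were picked by symbol, and all 10 are among the 25939 genes listed for every library. Cultured vascular smooth muscle cells from mouse aorta received trimethylamine N-oxide (TMAO), a metabolite derived from gut bacterial trimethylamine, or control treatment for 48 h. There were 3 Control and 3 TMAO libraries. Nothing on dose, vehicle, strain, sex, age, passage or how many mice were used is given in the sources used here. No label says that the 3 samples of a group came from separate animals or cultures, so the p-values reflect only how much these samples vary, and that variation may be technical.

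A contractile smooth muscle cell and a migrating or dividing one use different members of the same cytoskeletal families. Myosin II filaments are built on a smooth muscle heavy chain from Myh11 or on nonmuscle heavy chains from Myh9 and Myh10. Calponins and transgelins bind actin filaments, and their smooth muscle forms are standard markers of the contractile state, while the other forms occur in many cell types. Desmin is the intermediate filament of muscle and vimentin that of mesenchymal cells. Vascular smooth muscle cells placed in culture are known to lose contractile isoforms.

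Relatives that share sequence can share reads, so the coding sequences were compared in the GENCODE transcripts of mm10. Coding identity was 76.1% between Myh11 and Myh9 and 73.5% between Myh11 and Myh10. It was 69.6% for Cnn1 and Cnn2, 71.9% for Cnn1 and Cnn3, 71.6% for Tagln and Tagln2, and 71.2% for Des and Vim. The longest stretches identical in both members are shown. A read longer than such a stretch also covers bases that differ. Shorter shared stretches, such as the run of 22 bases in Cnn1 and Cnn2, are not shown. All lie in coding exons and are written 5′ to 3′ on the gene's own strand.
Myh11 and Myh9, also identical in Myh10: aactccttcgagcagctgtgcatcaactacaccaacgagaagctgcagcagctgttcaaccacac
Cnn1 and Cnn3: agcctgcagatgggcaccaacaa
Tagln and Tagln2: gatcccaactggttt
Des and Vim: gaatggtacaagtccaag
The myosin run of 65 bases lies at chr16:14232631-14232695 in Myh11 and chr15:77786593-77786657 in Myh9, both on the minus strand of mm10, and at chr11:68768202-68768266 on the plus strand in Myh10. The calponin run of 23 bases lies at chr9:22107862-22107884 in Cnn1. The runs of 15 bases in Tagln (chr9:45930838-45930852, minus strand) and of 18 bases in Des (chr1:75362709-75362726, plus strand) are shorter still.

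Stretches of 50 bases common to both members were found only in the myosin pairs. Of the 5891 such stretches in the Myh11 coding sequence, 26 were also in Myh9 and 16 in Myh10, while the pairs of Cnn1, Tagln and Des with their relatives shared 0. Read length is not given in the sources used here, and the part of shared reads in the Myh11 level was not tested.

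The nonmuscle member was far more abundant than the smooth muscle member of its family in all 6 libraries. Levels are in FPKM (fragments counted per exon length and library size), a scale on which genes of different length can be compared approximately. The length is that of all annotated exons of a gene together. For Myh9 it is 12928 bases beside 7433 in the transcript whose coding sequence was compared, and for Vim 4743 beside 2193. For Myh11 it is 7599 beside 6450 and for Cnn2 2460 in both, so folds between genes depend on the annotation. Vim had the highest mean level of the 10 genes, 2599 FPKM over the 6 libraries, and only 13 of all listed genes had a higher mean. Cnn3 (147 FPKM), Cnn2 (105 FPKM), Tagln2 (91.2 FPKM), Myh9 (40.7 FPKM) and Myh10 (4.58 FPKM) followed. The smooth muscle isoforms filled the lower end, with Des at 1.32 FPKM, Tagln at 0.809 FPKM, Cnn1 at 0.660 FPKM and Myh11 at 0.0946 FPKM. Down to Des, the library ranges of neighbours in this order did not overlap. Des and Tagln overlapped in range, as did Tagln and Cnn1, and Tagln lay above Cnn1 in 4 of 6 libraries, so the order of these last 2 does not stand out from their spread. In bulk RNA, fewer cells of a type and less RNA per cell cannot be told apart.

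**Figure D1:**
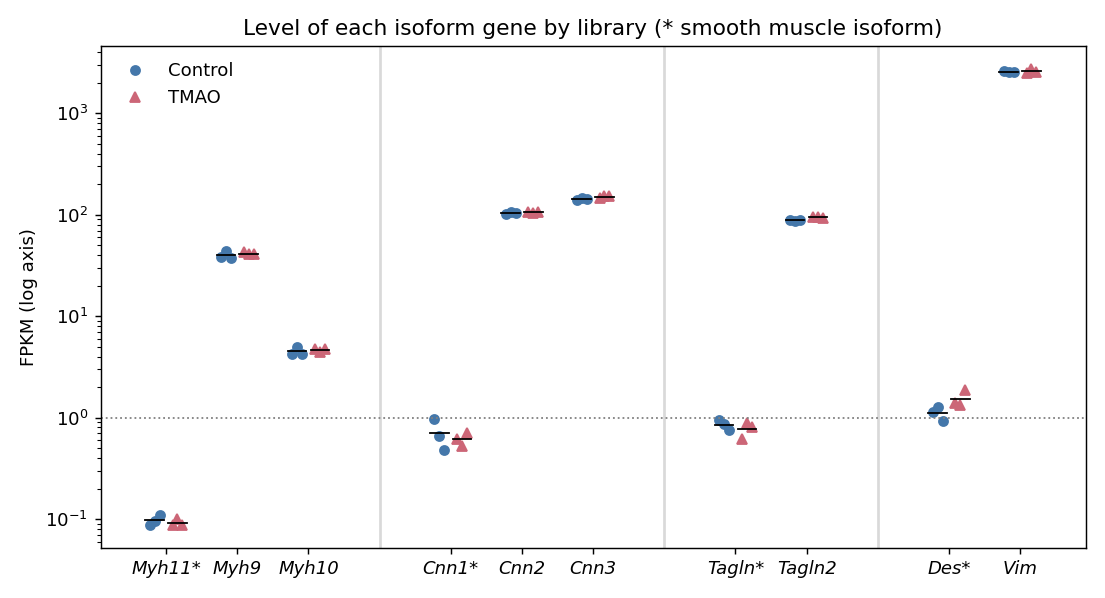
FPKM on a log axis for each of the 10 genes, with 1 point per library (circles Control, triangles TMAO), the group mean as a bar, and a dotted line at 1 FPKM. The smooth muscle isoforms (*) lie between 0.0876 and 1.87 FPKM, and every nonmuscle relative lies at 4.25 FPKM or above.

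The labelled cell type was checked against its markers. Of 8 smooth muscle markers all were listed, and 4 had means under 1 FPKM: Tagln, Cnn1, Myh11 and Myocd, the gene of the coactivator myocardin. The smooth muscle actin gene Acta2 had 487 ± 2.79 FPKM in Control, against 483 ± 8.68 in TMAO (SD, n = 3). It made up nearly all of the summed level of the list, which ran from 494 to 499 FPKM in Control and 486 to 502 FPKM in TMAO. Acta2 therefore stood 520 to 782 times above Tagln and 501 to 1022 times above Cnn1, depending on the library. Defining markers of endothelial cells (5 genes, summed 0.328 to 0.584 FPKM), epithelial cells (4 genes, at most 0.0907 FPKM) and Schwann cells (3 genes, at most 0.689 FPKM) were near 0. Of 6 striated muscle markers 4 were not listed, and the others summed to at most 0.0210 FPKM.

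Some markers of fibroblasts, macrophages and pericytes were present, and others in the same lists were low. The 8 fibroblast genes summed to 290 to 322 FPKM in Control and 265 to 285 FPKM in TMAO, mostly from the collagen gene Col1a1, with no overlap between groups. Only 1 of these 8, Pi16, had a mean under 1 FPKM, beside 4 of the 8 smooth muscle markers. The 5 macrophage genes summed to 74.4 to 91.0 and 70.3 to 78.9 FPKM, mostly from the lysozyme gene Lyz2. Means were under 1 FPKM for 3 of the 5, Adgre1, Csf1r and Ptprc, with Ptprc at 0.0399 (Control) and 0.0401 FPKM (TMAO). The 4 pericyte genes summed to 38.5 to 47.3 and 34.2 to 41.9 FPKM, mostly from Pdgfrb, and 2 of the 4 had means under 1 FPKM. The part of other cells in the isoform levels was not tested.

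The tables give no counts, but FPKM, exon length and library total fix the number of reads, which came out whole for all 10 genes. Totals ran from 14991252 to 16806728 reads per library. Intervals on these reads cover counting error only and leave out the spread between libraries. They take reads as independent, while PCR copies are not independent molecules, so they can be too narrow. Genes listed at 0 numbered 5973 to 6640 in the Control libraries and 5095 to 5590 in the TMAO libraries.

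The comparison of TMAO with Control used limma on log2(FPKM + 1). It included the 11062 genes that reached 1 FPKM in 3 or more libraries, of which 7 are described here. Myh11, Cnn1 and Tagln did not reach that level. Of the 7 isoform genes, 0 passed an adjusted p of 0.05 with limma, where 0.181% of all genes tested did, 0.0723% higher in TMAO and 0.108% lower (8 and 12 genes, or 7 and 18 with quantile normalization). With so few calls over all genes, a count of 0 among 7 says little about these genes. At an unadjusted p under 0.05 there were 2 of 7 with limma, Des and Tagln2, beside 13.1% of all genes. The count was 1 with quantile normalization, where Vim took the place of both, and 0 with the replicate block. With voom on the recovered reads, where all 10 genes could be tested, 0 of 10 passed after adjustment, beside 0.71% of all genes, and 1 of 10, Des, before it, beside 13.4%. The median log2 fold change was 0.06 over the 7 genes and 0.02 over all genes tested, and 7 of 7 were above 0, except that the sign turned for Myh10 with quantile normalization and for Myh10, Cnn2 and Vim with median-ratio size factors. Of all genes tested, 60.0% were above 0, against 48.9% and 46.4% under those scalings.

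In 3 of the 7, Cnn3, Tagln2 and Des, every TMAO library lay above every Control library. That order held for 12.4% of all genes tested, and the reverse order, seen in 6.23% of them, held for 0 of the 7. Both orders were counted on the deposited FPKM only and not under the other scalings. Median-ratio size factors ran from 0.981 (Control 1) to 1.05 (TMAO 1), a wider span than the gap between groups in Cnn3 and Tagln2.

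**Figure D2:**
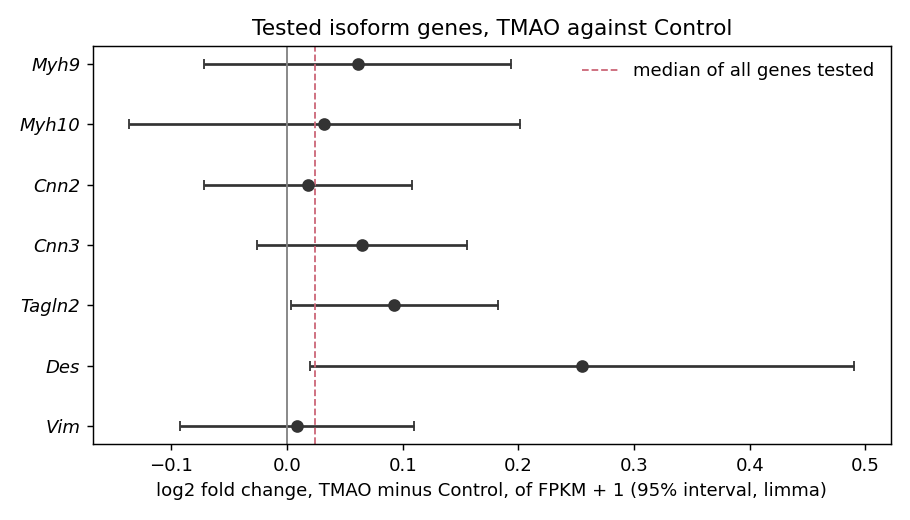
Log2 fold change (TMAO minus Control) on the log2(FPKM + 1) scale with its 95% interval from limma, for the 7 isoform genes tested; the dashed line is the median of all 11062 genes. Intervals for Des (0.02 to 0.49) and Tagln2 (0.003 to 0.183) lie above 0 before adjustment, and the intervals of the other 5 genes include 0.

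Among the myosin heavy chains, Myh11 (ENSMUSG00000018830, chr16:14194535-14291372, minus strand), the motor of contractile smooth muscle, was close to absent. It had 10, 11 and 14 reads in Control 1 to 3 and 11, 12 and 10 reads in TMAO 1 to 3. In FPKM these were 0.0876, 0.0961 and 0.110 in Control and 0.0876, 0.0990 and 0.0878 in TMAO, so the groups overlapped throughout. The pooled read rate in TMAO was 0.931 times that in Control, with a 95% exact counting interval of 0.561 to 1.54. That interval leaves out the spread between libraries and is not a detection limit. With so few reads the size of any change stays uncertain. Myh11 made up 0.221% ± 0.0363 of the summed level of the 3 heavy chains in Control and 0.198% ± 0.0175 in TMAO (SD, n = 3).

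Myh9 (ENSMUSG00000022443, chr15:77760587-77842175, minus strand), which codes for nonmuscle myosin IIA, stood at 38.7, 43.6 and 37.3 FPKM in Control and 42.9, 41.0 and 40.7 FPKM in TMAO. The highest library was Control 2, above all TMAO libraries, and the other Control libraries lay below them. Its log2 fold change was 0.06 ± 0.060 (SE, limma adjusted p = 0.723), and it ran from 0.016 without Control replicate 3 to 0.13 without Control replicate 2 (limma adjusted p = 0.958 and 0.411). With median-ratio size factors it was 0.022. Myh10 (ENSMUSG00000020900, chr11:68691559-68816632, plus strand), the gene of nonmuscle myosin IIB, stood at 4.25, 5.02 and 4.29 FPKM in Control and 4.75, 4.44 and 4.72 FPKM in TMAO. Here too Control 2 was highest, and the log2 fold change was 0.03 ± 0.076 (SE, limma adjusted p = 0.902).

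The heavy chain composition was nearly constant between libraries. Myh9 took 89.6% ± 0.258 of the summed level in Control and 89.8% ± 0.300 in TMAO (SD, n = 3), and Myh10 10.2% ± 0.241 and 10.03% ± 0.309. The longest run identical in Myh10 and Myh9, 122 coding bases, contains the sequence shown above. Of the other heavy chain genes looked up (Myh14 and 10 sarcomeric or related chains), 7 were not listed and the rest stayed under 1 FPKM, with Myh14, the third nonmuscle heavy chain gene, at means of 0.00304 (Control) and 0.00583 FPKM (TMAO), or at most 1 read per library.

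Among the calponins, Cnn1 (ENSMUSG00000001349, chr9:22099216-22109630, plus strand), which codes for the calponin of contractile smooth muscle, had 40, 27 and 22 reads in Control and 28, 23 and 29 in TMAO. Its levels were 0.974, 0.655 and 0.478 FPKM in Control and 0.619, 0.527 and 0.707 FPKM in TMAO. Control 1 was the highest library and Control 3 the lowest, so the Control libraries enclosed all TMAO libraries. The mean was 0.702 ± 0.251 FPKM in Control and 0.618 ± 0.0900 FPKM in TMAO (SD, n = 3). Without Control replicate 1 the sign of the difference turned, from -0.06 to 0.05 on the log2(FPKM + 1) scale. The pooled read rate ratio was 0.888 with a counting interval of 0.648 to 1.21.

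Cnn2 (ENSMUSG00000004665, chr10:79988584-79996062, plus strand) and Cnn3 (ENSMUSG00000053931, chr3:121426497-121458207, plus strand) code for the calponins found outside contractile muscle. Cnn2 stood at 101.9, 106.7 and 105.3 FPKM in Control and 106.5, 104.1 and 107.3 FPKM in TMAO, with overlapping groups and a log2 fold change of 0.02 ± 0.041 (SE, limma adjusted p = 0.896). Cnn3 stood at 140.8, 145.8 and 144.9 FPKM in Control and 146.3, 153.2 and 151.9 FPKM in TMAO. The groups did not overlap, but the lowest TMAO library exceeded the highest Control library by little, and the log2 fold change of 0.06 ± 0.041 did not pass (SE, limma adjusted p = 0.548). With median-ratio size factors the log2 fold change was 0.025. Other annotated transcripts, from Gm17936, Gm4815 and Gm42928, match 61.9% of the Cnn3 transcript at 95% identity or more over at least 100 bases. They were listed at means of 0.0315, 0.118 and 0.179 FPKM. Gm42928 lies at the Cnn3 locus itself on the opposite strand, and its exons cover 17.7% of the Cnn3 exon bases. The Cnn3 level is uncertain by the reads that such copies and this overlap can take. The part of either in the Cnn3 level was not tested.

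The calponin genes also differed upstream of their start sites, where RefSeq promoter windows on GRCm38 were searched for the CArG box. This is the motif bound by serum response factor, which acts with myocardin on contractile genes. An exact match, on either strand since the motif reads the same on both, was found in the 250 bases upstream of 1.47% of 32851 annotated starts. No window was available for Myh11 or Tagln, so their promoters were not searched. Of the 8 isoform genes with a window, 1 held an exact match, and this was Cnn2. An exact search does not count near matches, and it found 0 in the window of the smooth muscle actin gene Acta2. The Cnn2 window is shown with its CArG box in capitals, beside that of Cnn1, the smooth muscle calponin. The window of Cnn3, the most abundant calponin, held none.
Cnn2 (chr10:79988350-79988599, plus strand): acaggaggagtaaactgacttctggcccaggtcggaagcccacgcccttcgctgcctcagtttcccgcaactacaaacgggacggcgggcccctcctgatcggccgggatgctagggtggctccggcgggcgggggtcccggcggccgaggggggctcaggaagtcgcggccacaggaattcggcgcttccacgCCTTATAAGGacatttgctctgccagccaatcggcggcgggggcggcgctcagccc
Cnn1 (chr9:22099003-22099252, plus strand): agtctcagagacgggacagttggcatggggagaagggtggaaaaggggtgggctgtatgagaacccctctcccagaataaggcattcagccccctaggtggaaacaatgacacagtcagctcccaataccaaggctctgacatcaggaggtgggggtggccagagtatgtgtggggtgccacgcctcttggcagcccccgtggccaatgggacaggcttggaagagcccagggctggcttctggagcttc
The Cnn2 match starts 56 bases before the annotated start. The Cnn2 window holds 25 CG dinucleotides and is 68.4% G and C, and the Cnn1 window holds 3 and is 59.2% G and C, where the median window holds 6 and is 52.4%. These letters describe the windows and say nothing of binding.

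Among the transgelins, Tagln (ENSMUSG00000032085, chr9:45929619-45936058, minus strand), the SM22-alpha gene, had 28, 26 and 25 reads in Control and 20, 28 and 24 in TMAO. Its levels were 0.938, 0.868 and 0.748 FPKM in Control and 0.609, 0.883 and 0.805 FPKM in TMAO. TMAO 1 was the lowest library and the other TMAO libraries lay within the Control range. The pooled read rate ratio was 0.900 with a counting interval of 0.645 to 1.255. Exons of opposite-strand genes, Gm48529 and Pcsk7, cover 67.9% of the Tagln exon bases, and whether the counting used strand is not given in the sources used here. Scaled to the 639 uncovered bases alone, its reads would give 1.89 to 2.92 FPKM, with the mean of Tagln2 36.2 times higher. That scaling is not a bound, since a read only partly on covered bases could also go uncounted. The part of this overlap in the Tagln level was not tested.

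Tagln2 (ENSMUSG00000026547, chr1:172500047-172507380, plus strand), the transgelin of nonmuscle cells, stood at 88.7, 86.1 and 89.9 FPKM in Control and 94.5, 95.2 and 92.7 FPKM in TMAO. Every TMAO library was above every Control library, with means of 88.2 ± 1.96 and 94.1 ± 1.30 FPKM (SD, n = 3). The difference of 6.72% gave a log2 fold change of 0.09 ± 0.041 (SE) that did not pass (limma adjusted p = 0.367, and 0.369 to 0.723 under the alternatives). With median-ratio size factors it was 0.05.

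Tagln3, the neuronal transgelin gene, was below the filter at 0.591, 0.696 and 0.720 FPKM in Control and 0.342, 0.404 and 0.377 FPKM in TMAO. All TMAO libraries lay below all Control libraries. These levels rest on 11, 13 and 15 reads in Control and 7, 8 and 7 in TMAO.

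Des (ENSMUSG00000026208, chr1:75360329-75368579, plus strand) showed the largest difference of the 10 genes. It had 64, 72 and 59 reads in Control and 87, 79 and 105 in TMAO, or 1.14, 1.27 and 0.935 FPKM against 1.40, 1.32 and 1.87 FPKM. All TMAO libraries were above all Control libraries, and TMAO 3 was the highest. The means were 1.11 ± 0.170 and 1.53 ± 0.294 FPKM (SD, n = 3), a difference of 37.2%. The log2 fold change of 0.26 ± 0.106 (SE, 95% interval 0.02 to 0.49) did not pass after adjustment over all genes (limma adjusted p = 0.344, and 0.268 to 0.691 under the alternatives). The added 1 FPKM shrinks the change of so low a gene: a pseudocount of 0.1 gave 0.42 (limma adjusted p = 0.345), and with voom on recovered reads 0.45 ± 0.186 (SE, limma adjusted p = 0.278). Without TMAO replicate 3 it was 0.16 (limma adjusted p = 0.691).

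In the same libraries the summed fibroblast markers were lower in TMAO and fewer genes were listed at 0. Of the 8 fibroblast genes, Col1a1 alone separated the groups (means 185 and 163 FPKM), and Dcn, Dpt, Cd34 and Pi16 had higher means in TMAO. Of the 4 pericyte genes, Rgs5 (means 0.243 and 0.452 FPKM) and Cspg4 (1.38 and 1.52) had higher means in TMAO, and Pdgfrb (40.1 and 34.9) and Kcnj8 (0.974 and 0.935) lower ones. The pericyte groups did not overlap for Rgs5 and overlapped for the other genes and for the sum. The part of these differences in the Des values was not tested. Across the 6 libraries, the genes whose log2(FPKM + 1) followed Des most closely among 4015 genes with a mean of at least 10 FPKM were Esm1, Josd2 and Coq9 (Pearson r = 0.96 each). These are descriptions over 6 libraries that share the treatment groups.

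Vim (ENSMUSG00000026728, chr2:13573927-13582826, plus strand) stood at 2624, 2590 and 2557 FPKM in Control and 2506, 2760 and 2559 FPKM in TMAO. TMAO 1 was the lowest library and TMAO 2 the highest, so the TMAO libraries enclosed the Control libraries. The log2 fold change was 0.01 ± 0.046 (SE, 95% interval -0.09 to 0.11, limma adjusted p = 0.959), and its sign turned with median-ratio size factors, without Control replicate 3 and without TMAO replicate 2. With quantile normalization it was 0.12, with a 95% interval of 0.03 to 0.20 (limma adjusted p = 0.221). Of the 13 other intermediate filament and linker genes looked up, 5 were tested and 0 passed. The log2 fold change of the linker gene Plec was 0.13 with a limma adjusted p of 0.470, that of the keratin gene Krt19 0.04 (0.904), and those of the lamin genes Lmnb1 and Lmnb2 -0.07 (0.795) and -0.08 (0.815). The muscle filament gene Synm, whose product pairs with desmin, was below the filter at 0.0949 and 0.121 FPKM.

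**Figure D3:**
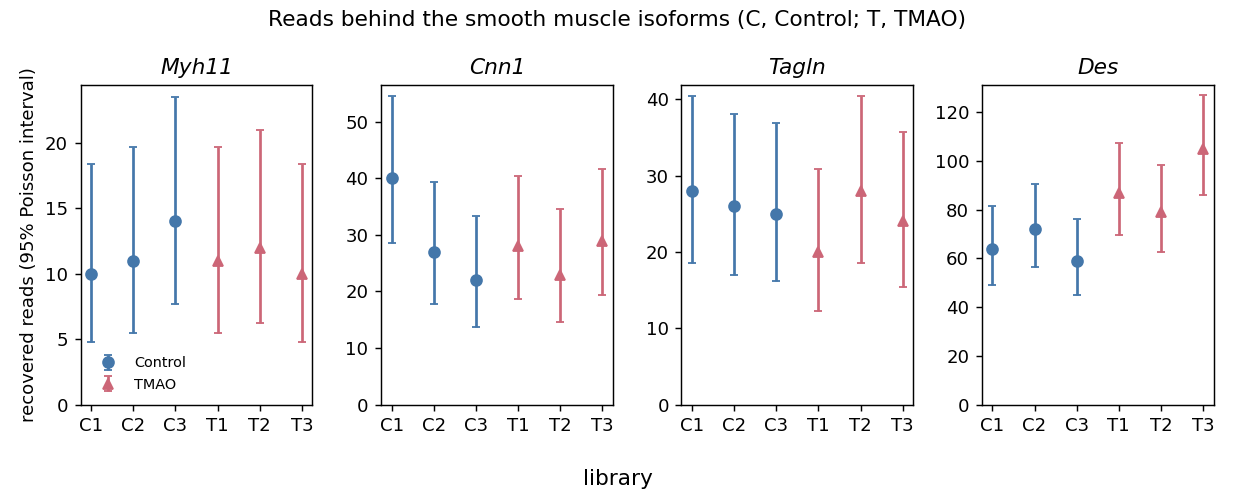
Recovered reads of the 4 smooth muscle isoforms in Control (C1 to C3, circles) and TMAO (T1 to T3, triangles) libraries, with 95% exact Poisson intervals for counting error; each panel starts at 0 and has its own scale. Reads of Myh11, Cnn1 and Tagln overlap between groups, and those of Des are 59 to 72 in Control and 79 to 105 in TMAO.

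A ratio of relatives within a library does not depend on how the library total was scaled, so each smooth muscle isoform was compared with its relatives in that form. Myh9 stood 340 to 490 times above Myh11 in the 6 libraries, and Myh10 stood 39.1 to 54.2 times above it. Cnn2 stood 105 to 220 times and Cnn3 145 to 303 times above Cnn1. Tagln2 stood 94.6 to 155 times above Tagln, and Vim 1372 to 2735 times above Des.

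None of the 6 ratios separated the groups. The mean log2 ratio of Des to Vim was -11.19 ± 0.214 in Control and -10.75 ± 0.308 in TMAO (SD, n = 3), a difference of 0.44 ± 0.216 (SE) with an exact two-sided permutation p = 0.2. By library it was -11.17, -10.99 and -11.42 in Control and -10.80, -11.03 and -10.42 in TMAO. TMAO 2 lay just below Control 2, which is the only crossing in that pair.

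The ratio of Tagln to Tagln2 was -6.70 ± 0.183 in Control and -6.96 ± 0.280 in TMAO (SD, n = 3), a difference of -0.26 ± 0.193 (SE, exact permutation p = 0.3). For Myh11, the difference was -0.16 ± 0.151 against Myh9 (SE, exact permutation p = 0.4) and -0.13 ± 0.154 against Myh10 (p = 0.5). For Cnn1 it was -0.15 ± 0.330 against Cnn2 (SE, exact permutation p = 0.8) and -0.20 ± 0.335 against Cnn3 (p = 0.7). Single libraries moved these values: without Control replicate 3 the Myh11 differences were -0.023 against Myh9 and -0.012 against Myh10. Without TMAO replicate 1 that of Tagln and Tagln2 was -0.099, and without TMAO replicate 3 that of Des and Vim was 0.28. Without Control replicate 1 those of Cnn1 turned to 0.13 against Cnn2 and 0.082 against Cnn3. Adjusted over the 6 pairs these exact permutation p-values were 0.75 to 0.8, and 3 libraries against 3 cannot go below 0.1. The ratio lay on the side of less smooth muscle isoform in 5 pairs and of more in Des and Vim, with overlapping groups in all 6, and pairs of 1 smooth muscle gene share its values.

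**Figure D4:**
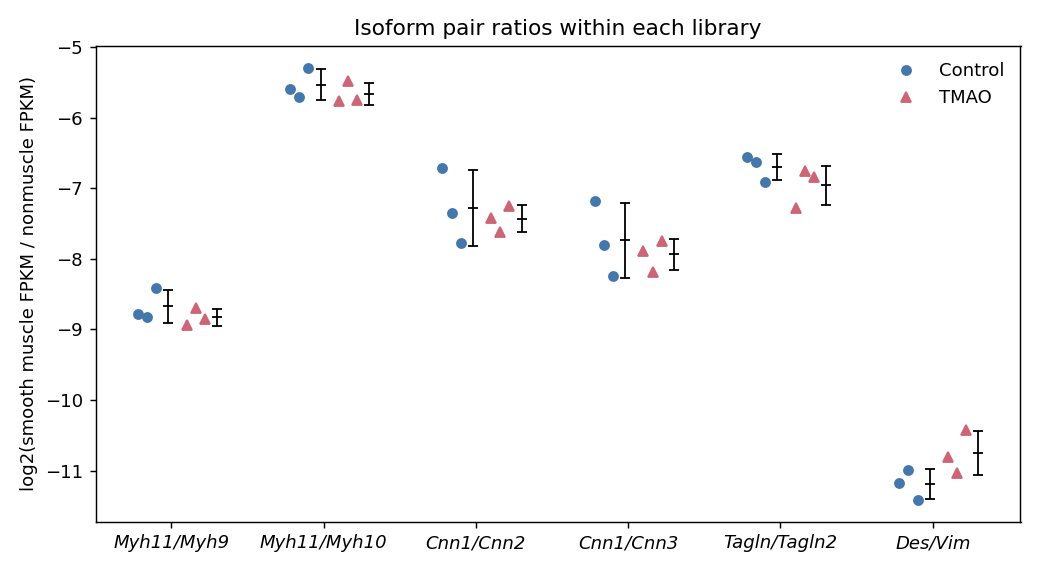
Log2 of smooth muscle over nonmuscle FPKM within each library for the 6 pairs (circles Control, triangles TMAO), with the group mean and SD in black beside the points. Groups overlap in every pair, and Cnn1 varies most among Control libraries (SD 0.539 against Cnn2).

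The smooth muscle and nonmuscle actins, read as a further pair, differed far less in level. Acta2 stood at 0.414, 0.405 and 0.416 times the level of Actb in Control and 0.385, 0.386 and 0.399 times in TMAO, so all TMAO libraries were lower, by a small margin. Actin coding sequences are close relatives and have processed copies, so reads can be shared among them.

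The rest of the contractile apparatus had 0 of 17 tested genes past the threshold with limma, from a list of 27, and a median log2 fold change of 0.01 beside 0.02 over all genes. The 4 with the smallest p were Nexn, an actin-binding filament gene, with -0.24 (limma adjusted p = 0.206), Mustn1 with 0.16 (0.308), the enteric actin gene Actg2 with -0.14 (0.344) and the transcription factor gene Srf with -0.17 (0.496). Actg2 stood at 17.8, 17.4 and 17.5 FPKM in Control and 14.8, 16.3 and 16.7 FPKM in TMAO, without overlap. Of all 27 genes, untested ones included, TMAO lay wholly below Control in 4, among them the untested Myocd, and wholly above in 3. The shares of 6.23% and 12.4% given above are over tested genes only, so the sets are not alike. Means were under 1 FPKM for 10 of the 27. Myocd was among those, at 0.674, 0.610 and 0.602 FPKM in Control and 0.518, 0.439 and 0.478 FPKM in TMAO, again without overlap. The kinase gene Mylk, whose product phosphorylates myosin light chains, was at 0.239 and 0.256 FPKM.

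Of the 19 tested genes of nonmuscle actomyosin, 0 passed with limma, with a median log2 fold change of 0.06 beside 0.02 over all genes. In that fit 15 of 19 were above 0, beside 60.0% of all genes. The 15 were not recounted under the other scalings, where 48.9% and 46.4% of all genes were above 0. The membrane linker gene Ezr had 0.15 (limma adjusted p = 0.271), the cytoplasmic actin gene Actg1 0.11 (0.272), the Arp2/3 subunit gene Arpc2 0.07 (0.495) and the tropomyosin gene Tpm3 0.07 (0.510). Actg1 stood at 563, 559 and 545 FPKM in Control and 596, 606 and 596 FPKM in TMAO, without overlap. Myl12b stood at 0.640 and 0.769 FPKM beside 48.5 and 51.0 FPKM for its near-identical relative Myl12a, so the split between them is uncertain.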

How the data were processed

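RNA was measured in 6 libraries, 3 Control and 3 TMAO, grouped by title. The authors deposited FPKM values per gene and library, per the file headers (1 header spells it PKM). Total RNA was extracted with Trizol and made into stranded mRNA libraries, per the labels' protocols. The submitters' processing notes name Trimmomatic, HISAT2, Cufflinks, HTSeq and mm10. Nothing on versions, annotation or strand setting is given in the sources used here. Exon lengths from GENCODE M21 on mm10 were found for 25885 genes, and with 1 total per library the values of 25499 of them (98.5%) were whole reads within 0.01.

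Means, fold changes and tests were computed from the deposited FPKM values with limma 3.58.1 in R 4.3.3 (trended, robust) on log2(FPKM + 1), for genes reaching 1 FPKM in 3 or more libraries, with Benjamini-Hochberg adjustment at 0.05. Log2 ratios of pairs had exact two-sided permutation tests. Sequences were aligned with Biopython 1.88, and transcripts compared with BLAST 2.17.0. The fit was also run on simulated data in which only genes with more reads than Myh11, Cnn1 and Tagln were changed. That run does not cover changes in genes as low as these. No library repeated another in a chi-square test of 10766 genes. Alternatives were quantile and median-ratio scaling, 2 other filters, a pseudocount of 0.1, the replicate block, voom on reads (mean of at least 5) and each library left out.

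All 10 genes are described, and from each list the 4 tested genes with the smallest p. The genes and lists were chosen with earlier results of these data known.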

Additional observations from a re-analysis of the deposited data

How the results depend on the processing

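The count of isoform genes past the threshold was 0 in all 13 alternatives, including the replicate block (0 of 7). Over all genes the count of 20 became 0 with no filter, 10 with a mean of at least 0.05 FPKM, 103 with voom on recovered reads, 11 without Control replicate 3, 13 without TMAO replicate 1 and 58 without TMAO replicate 2. Signs turned only for differences that did not pass. Myh10 had log2 fold changes of -9.5e-04 with quantile normalization, -2.2e-04 with median-ratio size factors and -0.0020 without Control replicate 1 (range without 1 library -0.0020 to 0.096). Cnn2 had -0.021 with median-ratio size factors and -4.8e-04 without Control replicate 1 (to 0.032). Vim had -0.031 with median-ratio size factors, -3.6e-04 without Control replicate 3 and -0.032 without TMAO replicate 2 (to 0.037), and 0.12 with quantile normalization. Cnn1 had 0.047 without Control replicate 1 (from -0.16). Without that library the difference in log2 ratio became 0.13 for Cnn1/Cnn2 (range -0.40 to 0.13) and 0.082 for Cnn1/Cnn3 (range -0.45 to 0.082). The cause was not tested. Same-numbered libraries did not deviate together (r = -0.086, -0.10 and 0.056 for numbers 1 to 3), so the numbers were not taken as pairs. The replicate block left the difference of Des at 0.26 (its limma adjusted p became 0.488) and that of Des/Vim at 0.44. Depth limits Myh11, Cnn1 and Tagln, which rest on 10 to 40 reads per library.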
